A study of Rattus norvegicus with 90 samples.

Results

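The 5 transcripts described here, ENSRNOT00000010092, ENSRNOT00000008535, ENSRNOT00000007790, ENSRNOT00000054937 and ENSRNOT00000065584, are a fixed list of Ensembl rat transcripts out of 40071 measured. They were chosen by their measured levels, which differed strongly between vehicle and thioacetamide-S-oxide in the renal cells of these same libraries. The listing does not say which dose or time was used, so every renal comparison counts as used by the choice. Renal values are therefore given as a description with no p-value, and test results are read only in hepatocytes and cardiomyocytes. The same fit was run on the renal libraries, and the counts and ranks from it only describe the choice. All 5 identifiers were found in each of the 90 libraries. The gene table used for names holds no Ensembl identifiers and matched 0 of the 40071 transcripts. The 5 are named by identifier only, and the labelled cell types were not checked against marker genes.

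Proximal tubular epithelial cells line the first segment of the renal tubule, where most of the filtered water, salts, glucose and amino acids are taken back up, and their transport and metabolic activity makes them a frequent site of toxicant injury. Thioacetamide is a classical rodent liver toxicant. It is oxidised, first to thioacetamide-S-oxide, and the further oxidised product binds to proteins and lipids. Adding the S-oxide to cultured cells bypasses the first oxidation.

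The study asked whether expression changes in cultured rat cells exposed to thioacetamide-S-oxide correlate with injury-associated gene groups in the animal, and only the cultured cells are described here. Poly-A-enriched RNA was sequenced from cultured Sprague-Dawley rat cells of 3 kinds, which after plating were cultured for a further 18 h before the agent was added and were then exposed for 9 or 24 h. Hepatocytes received vehicle (maintenance medium), 0.025 mM (low dose) or 0.125 mM (high dose) thioacetamide-S-oxide. Renal proximal tubular epithelial cells, labelled renal tube epithelial cells, received vehicle, 0.125 mM (low) or 0.5 mM (high), and cardiomyocytes received vehicle, 0.5 mM (low) or 1.5 mM (high). Each of the 18 conditions has 5 libraries, identified by their labels as MS numbers. Hepatocytes and renal cells were cryopreserved primary cells bought from commercial suppliers, and their doses had been chosen for mild toxicity. Among the exposures of these cells in the study's viability assays, ATP relative to vehicle was lowest in high-dose renal cells at 24 h. The origin of the cardiomyocytes and the choice of their doses are not given in the sources used here. The number of animals is not given either, so p-values measure the spread between cultures, which may be technical.

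Levels are given as CPM, counts scaled to a common library total over all transcripts, and as TPM, which also corrects for transcript length. Only TPM is used to compare one transcript with another. A comparison is called where edgeR's quasi-likelihood test gave an adjusted p of at most 0.05 and the fold change was at least 1.507 (0.41 on the natural-log scale). No overlap between the libraries of 2 groups is given as a description. Within a cell type 3.70% (renal low dose against vehicle, 24 h) to 47.6% (renal high dose against vehicle, 9 h) of all transcripts tested had no overlap. Against vehicle at 24 h the share was 29.8% (low dose) and 21.2% (high dose) in hepatocytes, and 4.76% and 26.3% in cardiomyocytes. Because RNA was pooled from whole cultures, fewer cells that express a transcript and less of it per cell cannot be told apart.

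Total estimated counts on transcripts ranged from 10519414 to 55822031 in 89 libraries, and hepatocyte vehicle library MS-183 (24 h) had 249303. Of the MS-183 counts over all deposited targets, 8.33% fell on transcripts, against 84.1% to 95.3% in the other 89 libraries. It thus differs from them in more than depth. In 7 libraries, each in a different condition, the total was below 60% of its group's median. In 4 of them every one of the 5 transcripts above 0 in the group was at or tied for its lowest level: MS-183, the renal low-dose library MS-145 (24 h, 48.2% of its group's median) and the low-dose cardiomyocyte libraries MS-158 (9 h, 39.7%) and MS-172 (24 h, 45.1%). Other transcripts with a mean of at least 1 CPM also scattered widely in these conditions. Their median coefficient of variation was 58.1%, 27.3%, 26.6% and 29.8% in that order, against at most 12.7% in any other condition. The pattern is therefore not read as a trait of the 5. Calls that change without 1 of the 7 libraries are given both ways.

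**Figure D1:**
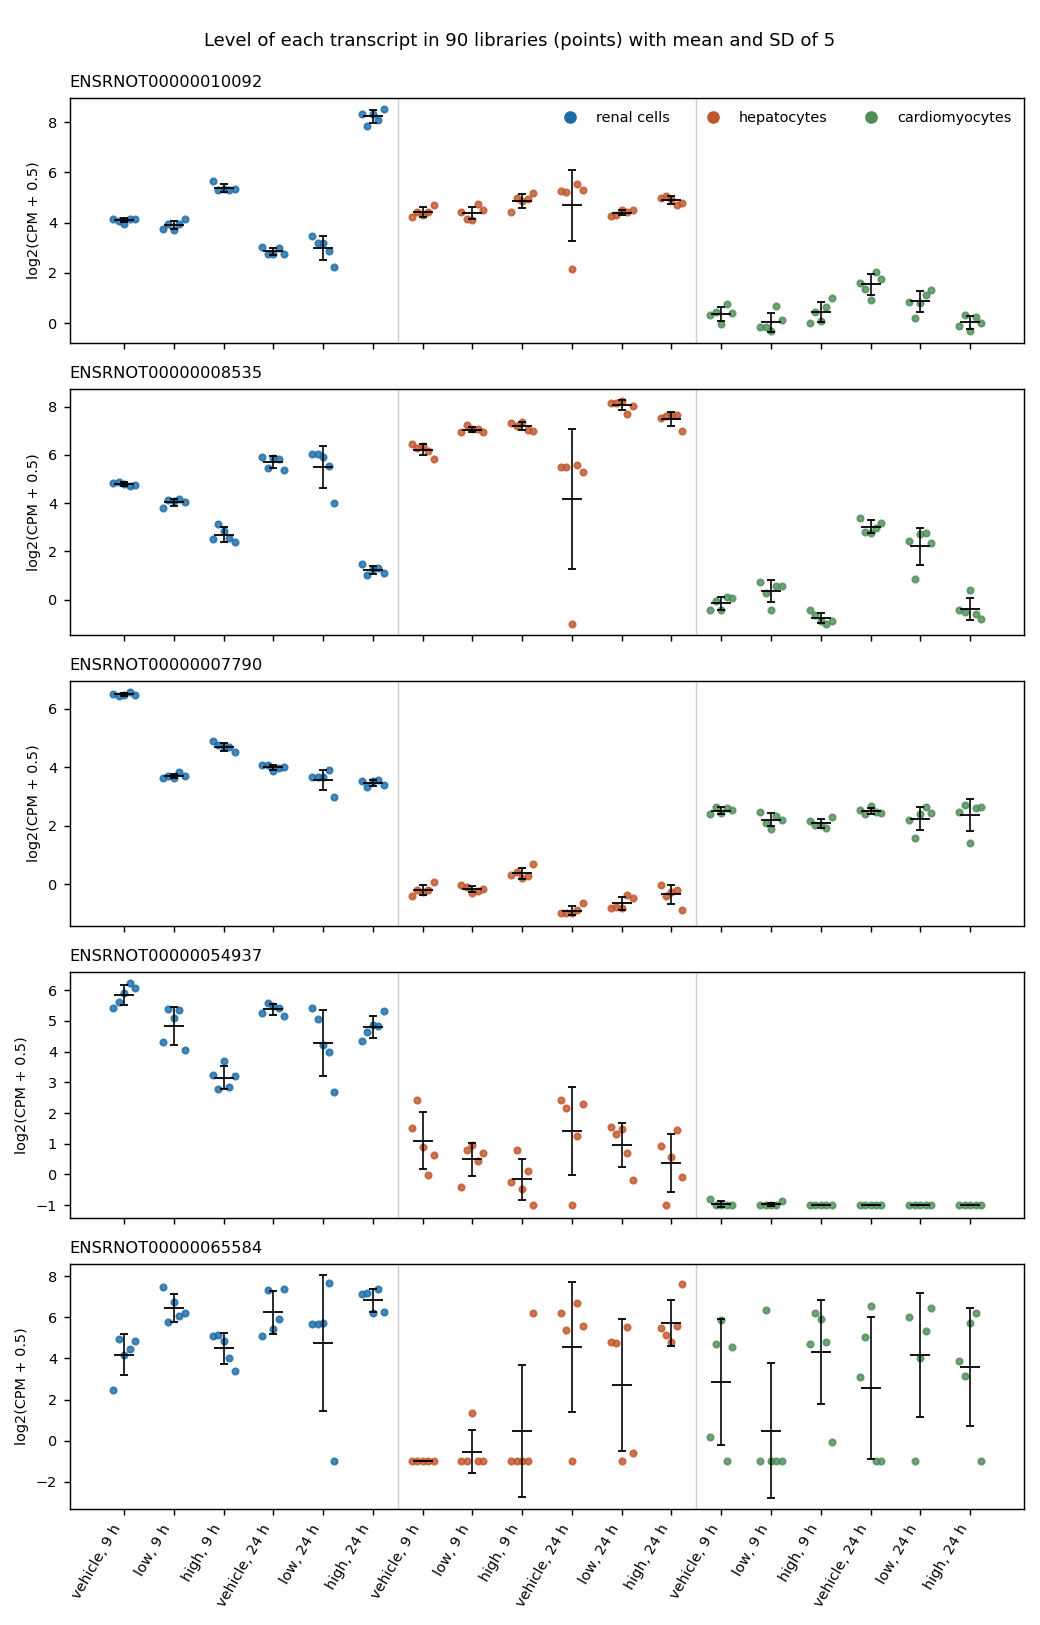
The vertical axis of each panel is log2(CPM + 0.5) of one transcript, and the horizontal axis gives the 18 conditions, with renal cells, hepatocytes and cardiomyocytes from left to right. Points are libraries, and bars are the mean and SD of 5 on the plotted scale. ENSRNOT00000010092 stands at 232 to 370 CPM in high-dose renal cells at 24 h and at most at 49.4 CPM in any other library, while ENSRNOT00000065584 runs from 0 to 203 CPM within low-dose renal cells at 24 h.

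In renal cells ENSRNOT00000010092 was low in vehicle cultures and high after 24 h at the high dose. Its CPM in the 5 vehicle libraries at 9 h was 17.3, 16.2, 15.05, 17.4 and 17.0. At the low dose it was 13.1, 15.1, 12.6, 14.95 and 17.3 CPM, and at the high dose 49.4, 39.0, 39.7, 39.3 and 39.7 CPM. The high-dose libraries all lay above both other groups, whereas low dose and vehicle overlapped. The fitted log2 fold change at 9 h was -0.17 (SE 0.08) for low dose and 1.35 (SE 0.07) for high dose against the same vehicle libraries.

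At 24 h the vehicle libraries of ENSRNOT00000010092 stood at 7.77, 6.34, 6.27, 7.47 and 6.24 CPM. The low-dose libraries gave 10.5, 8.53, 8.72, 6.83 and 4.16 CPM, the lowest of them being MS-145. High-dose cultures gave 322, 232, 319, 273 and 370 CPM. No high-dose library came near the others: the group mean was 303 ± 52.4 CPM (SD, n = 5) against 6.82 ± 0.742 CPM in vehicle, a ratio of 44.5. The fitted log2 fold change was 5.41 (SE 0.12) for high dose and 0.26 (SE 0.14) for low dose, the latter 0.33 without MS-145. Vehicle cultures themselves had less of it at 24 h than at 9 h, with a log2 fold change of -1.19 (SE 0.07) and no overlap.

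In hepatocytes the same transcript was present in every culture. The 5 vehicle, low-dose and high-dose libraries at 9 h spanned 18.1 to 25.7, 16.8 to 25.9 and 20.9 to 36.0 CPM. High dose against vehicle gave a log2 fold change of 0.58 (SE 0.13, adjusted p = 0.00327 in edgeR), short of the fold threshold and therefore not called. It was called when vehicle library MS-95, a shallow one, was left out (0.63) and when high-dose library MS-101 was left out (0.68).

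The hepatocyte vehicle group at 24 h held 38.1, 36.3, 4.01, 46.2 and 38.7 CPM, the lowest being MS-183. The low-dose libraries lay at 18.7 to 22.2 CPM and the high-dose libraries at 25.6 to 32.6 CPM, below the vehicle libraries other than MS-183. With all libraries edgeR called neither dose, at log2 fold changes of -0.86 (95% interval -1.53 to -0.19) for low dose and -0.30 (-0.99 to 0.39) for high dose. The low dose was called by DESeq2 (-0.88, adjusted p = 0.000184), by edgeR with all hepatocyte groups in one fit (-0.95, adjusted p = 1.93e-05) and by edgeR without MS-183 (-1.01, adjusted p = 1.93e-06). Without MS-183 the high dose gave -0.47, under the fold threshold. Between the 2 doses no library overlapped, as for 30.6% of all transcripts tested. The log2 fold change was 0.54 (SE 0.08) for high against low, also under the threshold.

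Cardiomyocytes held little of ENSRNOT00000010092, at most 3.56 CPM in any library. Vehicle cultures had 0.743, 0.852, 0.484, 1.19 and 0.809 CPM at 9 h and 2.57, 2.09, 1.39, 3.56 and 2.91 CPM at 24 h. The 24 h vehicle libraries all exceeded those at 9 h (log2 fold change 1.67, SE 0.29, adjusted p = 0.00145 by edgeR), opposite in sign to the renal value. Of all transcripts tested, 23.8% had no overlap between these 2 groups. High-dose cultures at 24 h had 0.428, 0.768, 0.299, 0.691 and 0.497 CPM, all below every vehicle library. The log2 fold change against vehicle was -2.20 (SE 0.33, 95% interval -2.93 to -1.48, adjusted p = 0.000413), a called decrease at a dose where renal cells were not measured. The 24 h value for high against low dose was -1.49 (SE 0.33, adjusted p = 0.0221), a call that was lost when any 1 of the low-dose libraries MS-171, MS-174 and MS-175 or of the high-dose libraries MS-176 and MS-180 was left out (edgeR adjusted p 0.0520 to 0.0719).

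ENSRNOT00000008535 was lower at higher dose in renal cells at 9 h and almost gone at the high dose at 24 h. At 9 h its vehicle libraries held 28.1, 29.0, 27.5, 25.5 and 26.3 CPM. Low-dose libraries held 13.3, 17.1, 16.4, 17.3 and 15.9 CPM, and high-dose libraries 5.13, 8.30, 6.73, 5.39 and 4.67 CPM. The 3 groups did not overlap anywhere. Fitted log2 fold changes against vehicle were -0.75 (SE 0.07) at the low dose and -2.13 (SE 0.13) at the high dose.

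At 24 h the low-dose renal libraries of ENSRNOT00000008535 overlapped with vehicle, with 2 above and 1 below all vehicle libraries. Vehicle libraries had 60.6, 43.5, 57.9, 56.4 and 41.6 CPM, and low-dose libraries 65.9, 65.5, 60.6, 45.9 and 15.6 CPM, the last being MS-145. High-dose cultures had 2.25, 1.50, 1.94, 1.99 and 1.68 CPM. The low dose differed from vehicle by 0.01 on the log2 scale (SE 0.24), or 0.19 without MS-145, and the high dose by -4.85 (SE 0.13), from a mean of 52.0 ± 8.77 CPM to 1.87 ± 0.289 CPM (SD, n = 5 each). Vehicle cultures held more at 24 h than at 9 h, by 1.02 on the log2 scale (SE 0.09).

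In hepatocytes every dosed group stood above its vehicle group. At 9 h vehicle cultures had 87.3, 76.6, 82.4, 70.8 and 56.8 CPM of ENSRNOT00000008535, low-dose cultures 122.5, 149.3, 133.2, 135.2 and 122.99 CPM, and high-dose cultures 160.7, 147.7, 165.4, 132.2 and 125.995 CPM. All dosed libraries exceeded all vehicle libraries. Of all transcripts tested, 13.6% (low dose) and 38.3% (high dose) had no overlap with vehicle in either direction. The rise was called at the low dose (log2 fold change 0.84, SE 0.11, adjusted p = 0.000512) and at the high dose (1.05, SE 0.12, adjusted p = 2.19e-05, both edgeR). High against low dose was not called, at 0.21 (95% interval 0.04 to 0.39).

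The hepatocyte contrast was wider at 24 h. Vehicle libraries had 44.6, 45.0, 0, 48.0 and 39.1 CPM, the 0 being MS-183, whose total was 249303 counts. Low-dose libraries had 283, 283, 304, 210 and 263 CPM and high-dose libraries 184.9, 195, 202, 204 and 127.1 CPM, with no overlap among the 3 groups. Low dose against vehicle gave a log2 fold change of 2.74 (SE 0.45, edgeR adjusted p = 0.00188) and high dose one of 2.20 (SE 0.42, adjusted p = 0.00668). Without MS-183 these became 2.54 (adjusted p = 1.70e-08, edgeR) and 2.01 (adjusted p = 5.71e-07). With MS-183 included, limma on log2(CPM + 0.5) called neither (adjusted p = 0.0750 and 0.170), at larger log2 fold changes of 3.835 and 3.30. With no filter beyond 1 count, edgeR did not call the high dose (2.31, adjusted p = 0.0961). The low dose stood above the high dose in every library, but that difference, -0.54 on the log2 scale (SE 0.12) for high against low, did not reach the fold threshold.

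In cardiomyocytes the late high-dose value was below vehicle. Vehicle libraries at 24 h held 10.01, 6.57, 6.33, 7.26 and 8.52 CPM of ENSRNOT00000008535, low-dose libraries 4.83, 1.33, 6.004, 6.24 and 4.53 CPM, and high-dose libraries 0.252, 0.202, 0.821, 0.164 and 0.0710 CPM. No library overlapped between the 3 groups, but the low dose was not called against vehicle, where edgeR gave -0.63 (SE 0.25, adjusted p = 0.407), or -0.47 without the shallow low-dose library MS-172. The high dose was called against vehicle, with a log2 fold change of -4.86 (SE 0.46, adjusted p = 1.59e-05), and against the low dose, with -4.15 (SE 0.59, adjusted p = 0.00258). Leaving out the shallow high-dose library MS-178, which held the 0.821 CPM, gave -5.43 against vehicle.

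At 9 h the cardiomyocyte levels of this transcript were close to the limit of counting. Vehicle libraries had 0.235 to 0.569 CPM (40 estimated counts in all), low-dose libraries 0.246 to 1.16 CPM and high-dose libraries 0 to 0.235 CPM (20 counts in all). High against low dose was called at -3.17 (SE 0.65, adjusted p = 0.00981, edgeR), and the libraries did not overlap. Its size depended on the setting: it ran from -3.19 to -1.14 under 7 alternatives, all of which kept the call. Low dose against vehicle gave 1.06 (SE 0.36, adjusted p = 0.132), which became a call at 1.20 (adjusted p = 0.0207) without the shallow low-dose library MS-158. The vehicle cultures rose from 9 to 24 h by 4.30 on the log2 scale (SE 0.26, adjusted p = 5.82e-07).

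ENSRNOT00000007790 had its highest level in unexposed renal cells at 9 h, and the low dose lowered it further than the high dose did. Vehicle libraries held 90.2, 86.6, 88.9, 95.2 and 89.2 CPM, low-dose libraries 12.0, 12.4, 11.8, 13.7 and 12.6 CPM, and high-dose libraries 29.2, 26.3, 25.4, 25.2 and 22.2 CPM. The 3 groups were far apart, and replicate libraries lay close together, with a coefficient of variation (CV) of 3.52% in vehicle. Fitted log2 fold changes against vehicle were -2.83 (SE 0.04) at the low dose and -1.78 (SE 0.06) at the high dose, and high against low dose gave 1.05 (SE 0.07).

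By 24 h the renal vehicle level of ENSRNOT00000007790 was itself near the low-dose level of 9 h. It was 16.3, 16.5, 14.2, 15.2 and 15.7 CPM in vehicle, 12.1, 12.1, 12.3, 14.3 and 7.33 CPM at the low dose and 11.1, 9.52, 11.1, 11.2 and 9.95 CPM at the high dose. The 24 h vehicle cultures stood 2.45 log2 units below those of 9 h (fitted log2 fold change -2.45, SE 0.05). The low dose then differed from vehicle by -0.32 (SE 0.11), or -0.29 without MS-145, and the high dose by -0.62 (SE 0.07), or -0.59 without the shallow vehicle library MS-137.

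Hepatocytes had almost none of ENSRNOT00000007790, at most 1.096 CPM in a library. At 9 h the vehicle libraries had 0.249, 0.376, 0.326, 0.376 and 0.554 CPM (46 counts in all), and the high-dose libraries 0.729, 0.822, 0.649, 0.709 and 1.096 CPM (107 counts in all). The latter were all higher, and the increase was called at a log2 fold change of 1.20 (SE 0.27, adjusted p = 0.00289 by edgeR) against vehicle and 1.08 (SE 0.23, adjusted p = 0.00423) against the low dose. With all hepatocyte groups in one fit neither was called (adjusted p = 0.0864 and 0.197), and limma on log2(CPM + 0.5) did not call the second. At 24 h the 5 vehicle libraries together held 4 counts, the low dose 19 and the high dose 41, and the filter on low counts removed the transcript.

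In cardiomyocytes ENSRNOT00000007790 stood between 2.17 and 6.11 CPM in all 30 libraries. Vehicle libraries at 9 h had 4.77 to 5.74 CPM and high-dose libraries 3.27 to 4.38 CPM, with no overlap, as for 35.6% of all transcripts tested. The log2 fold change of -0.53 (SE 0.11, adjusted p = 0.00168 in edgeR) was under the fold threshold. The other 3 comparisons of a dose with vehicle gave -0.26 to -0.08, none called, the value nearest to 0 (high dose, 24 h) becoming 0.09 without the shallow library MS-178. The time effect seen in renal vehicle cultures had no counterpart of that size here: vehicle at 24 h against 9 h gave 0.03 with a 95% interval of -0.19 to 0.26.

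ENSRNOT00000054937 is 9192 bases long, longer than 99.4% of the transcripts, and was measured almost only in renal cells. Vehicle libraries at 9 h had 42.1, 48.9, 59.4, 74.0 and 66.0 CPM, low-dose libraries 19.2, 41.6, 33.6, 40.6 and 16.0 CPM and high-dose libraries 8.91, 6.30, 12.6, 6.63 and 8.78 CPM. The groups did not overlap, although the highest low-dose library came within 1 CPM of the lowest vehicle library. Fitted log2 fold changes against vehicle were -0.92 (SE 0.26) and -2.73 (SE 0.20).

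The renal high-dose level of ENSRNOT00000054937 was closer to vehicle at 24 h than at 9 h. Vehicle libraries had 37.8, 47.4, 44.3, 42.4 and 34.8 CPM, low-dose libraries 42.1, 33.2, 18.2, 15.4 and 5.86 CPM, and high-dose libraries 19.7, 24.3, 28.3, 28.0 and 39.2 CPM. The low-dose group was the most scattered, with a CV of 63.3% (46.4% without MS-145), and overlapped both other groups. Its log2 fold change was -0.81 (SE 0.34), or -0.61 without MS-145, and that of the high dose -0.62 (SE 0.16), or -0.57 without MS-137.

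Outside renal cells ENSRNOT00000054937 was at 0 to 4.91 CPM in hepatocytes and was listed at 0 in 28 of the 30 cardiomyocyte libraries. The 2 exceptions held 0.0769 CPM (vehicle library MS-151, 9 h) and 0.0459 CPM (low-dose library MS-160, 9 h), under 2 estimated counts each. A group total of 0 in the vehicle cardiomyocytes at 24 h allows up to 3 counts, or 0.0232 CPM. Hepatocyte vehicle libraries at 9 h had 2.36, 4.91, 1.36, 0.496 and 1.06 CPM and were all above the cardiomyocyte libraries. Of all transcripts tested, 75.8% had no overlap between the vehicle groups of these cell types at 9 h. In hepatocytes the dosed groups had the lower means in all 4 comparisons with vehicle, but none was called. The one nearest to a call was high dose at 9 h, with a log2 fold change of -1.97 (95% interval -3.69 to -0.26, adjusted p = 0.0546 in edgeR), which DESeq2 (adjusted p = 0.0318) and limma (adjusted p = 0.0380) did call.

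ENSRNOT00000065584 differed most from the rest in how unevenly it was counted. In renal cells at 9 h vehicle libraries had 5.03, 30.7, 17.3, 21.6 and 28.4 CPM, low-dose libraries 175.4, 53.9, 108.8, 67.5 and 74.6 CPM and high-dose libraries 33.5, 34.9, 27.9, 15.7 and 9.87 CPM. The low-dose libraries lay above both other groups, which overlapped. The fitted log2 fold change was 2.23 (SE 0.42) for low dose and 0.26 (SE 0.42) for high dose against vehicle, so it was the lower dose that stood out.

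At 24 h no such order was seen for ENSRNOT00000065584. Renal vehicle libraries had 34.1, 160.03, 42.0, 60.9 and 168.1 CPM, low-dose libraries 51.0, 50.0, 51.7, 203 and 0 CPM, the 0 being MS-145, and high-dose libraries 139.8, 146.6, 72.6, 168.5 and 76.3 CPM. All 3 groups overlapped, with log2 fold changes of -0.36 (SE 0.998) and 0.31 (SE 0.49) against vehicle. Removing MS-145 brought the low-dose value to -0.03, and removing the shallow vehicle library MS-137 brought the high-dose value to 0.59. With any 1 library left out the low-dose value ran from -1.33 to -0.01 and the high-dose value from 0.09 to 0.67.

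The scatter of ENSRNOT00000065584 was as large in the other cell types. Hepatocyte vehicle cultures at 9 h had practically 0 in all 5 libraries, and the high-dose group at 9 h had under 0.01 CPM in 4 libraries and 73.1 CPM in MS-105. The hepatocyte vehicle libraries at 24 h had 73.7, 41.5, 0, 102.6 and 47.1 CPM. The low-dose cardiomyocytes at 9 h had under 0.01 CPM in 4 libraries and 82.0 CPM in MS-157. In the 8 comparisons of a dose with vehicle outside renal cells it was tested in 6 and called in 0, with 95% intervals as wide as -4.90 to 4.11 (low-dose cardiomyocytes, 9 h). Of these 6, 0 had an unadjusted p under 0.05 in edgeR. Without MS-157, high against low dose in cardiomyocytes at 9 h was called (adjusted p = 0.0288, edgeR), the 4 remaining low-dose libraries then being near 0, so no fold is given.

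**Figure D2:**
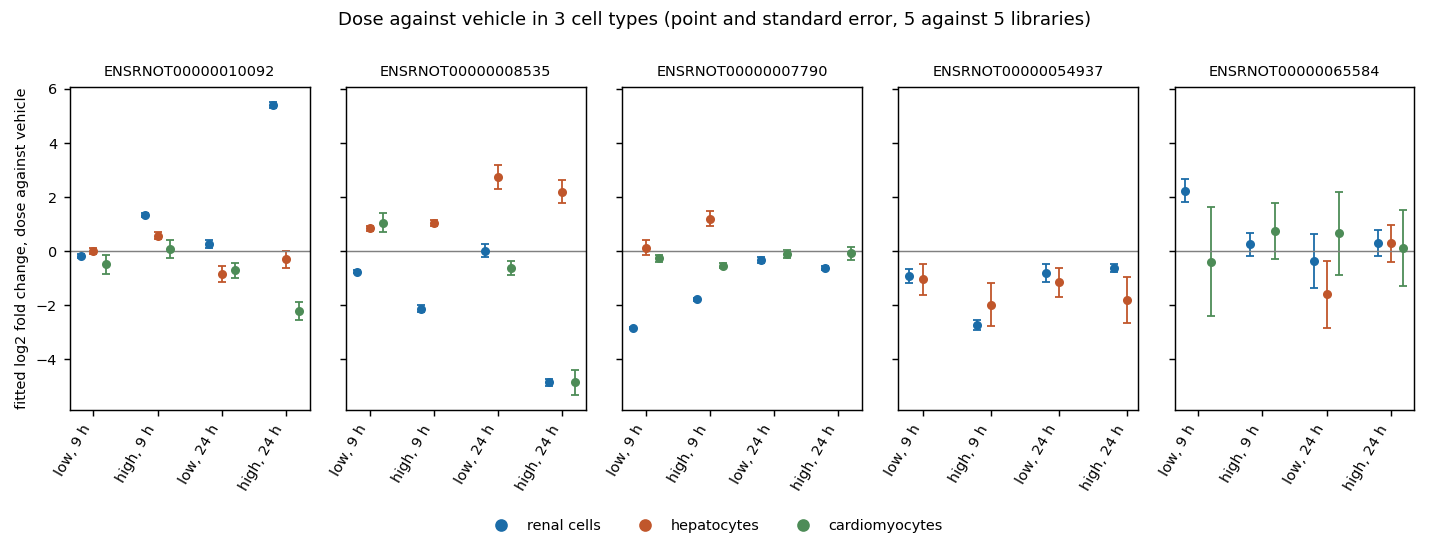
Each panel gives 1 transcript, with the fitted log2 fold change of a dose against vehicle on the vertical axis and the 4 combinations of dose and time on the horizontal axis. Points are edgeR estimates from 5 against 5 libraries and bars their standard errors, a missing point is a transcript removed by the filter on low counts, and doses differ between cell types. ENSRNOT00000008535 lies above 0 in hepatocytes in all 4 (0.84 to 2.74) and at -4.85 and -4.86 in renal cells and cardiomyocytes at the high dose at 24 h.

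Some doses were shared between cell types and can be set side by side. At 0.125 mM, the low dose of renal cells and the high dose of hepatocytes, ENSRNOT00000008535 gave -0.75 in renal cells and 1.05 in hepatocytes at 9 h, and 0.01 and 2.20 at 24 h (log2 fold changes against each cell type's own vehicle). ENSRNOT00000007790 at 0.125 mM and 9 h gave -2.83 from a vehicle mean of 90.02 CPM in renal cells and 1.20 from 0.376 CPM in hepatocytes. At 0.5 mM, the high dose of renal cells and the low dose of cardiomyocytes, ENSRNOT00000010092 at 24 h gave 5.41 in renal cells and -0.70 (95% interval -1.33 to -0.08, not called) in cardiomyocytes, and ENSRNOT00000008535 gave -4.85 and -0.63 (not called). At 9 h, 0.5 mM gave 1.35 in renal cells and -0.48 (not called) in cardiomyocytes for ENSRNOT00000010092, and -2.13 and 1.06 (not called) for ENSRNOT00000008535. These differences involve the renal values that chose the transcripts and were not tested.

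Hepatocytes and cardiomyocytes, which the choice did not use, were compared directly by testing the difference between their effects against vehicle. This test was added after the values were seen, and the doses differ (0.125 and 1.5 mM at the high dose, 0.025 and 0.5 mM at the low dose). For ENSRNOT00000008535 the hepatocyte minus cardiomyocyte difference was called at the low dose at 24 h (3.40 on the log2 scale, SE 0.50, adjusted p = 0.000142) and at the high dose at 24 h (7.09, SE 0.52, adjusted p = 8.52e-09). ENSRNOT00000010092 differed at the high dose at 24 h by 1.89 (SE 0.43, adjusted p = 0.00435, edgeR). The other 3 differences past the threshold rest on few counts in 1 of the cell types, and no more than the values is drawn from them. For ENSRNOT00000008535 at the high dose at 9 h the value was 3.09 (SE 0.68, adjusted p = 0.00112), with 40 vehicle and 20 high-dose counts in cardiomyocytes, where the filter on low counts had removed it. For ENSRNOT00000007790 at the high dose at 9 h it was 1.73 (SE 0.24, adjusted p = 7.46e-06), with 46 vehicle and 107 high-dose counts in hepatocytes. For the same transcript at the high dose at 24 h it was 2.65 (SE 0.81, adjusted p = 0.0278), with 4 vehicle and 41 high-dose counts in hepatocytes, where the filter had removed it. Without MS-183 the 24 h values were 3.19 and 7.02 for ENSRNOT00000008535 and 1.78 for ENSRNOT00000010092, all called. Of all transcripts tested, 19.8% were called at the high dose at 9 h, 13.8% at the low dose at 24 h and 17.3% at the high dose at 24 h. Without MS-183 the shares at 24 h were 27.8% and 28.4%. At the low dose at 9 h 3.28% of all transcripts were called, and the differences were 0.46 (SE 0.34) for ENSRNOT00000010092, -0.32 (SE 0.31) for ENSRNOT00000008535 and 0.39 (SE 0.24) for ENSRNOT00000007790, none called.

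Counted over the 5, calls outside renal cells followed ENSRNOT00000008535 in most cases. In hepatocytes 1 of the 4 tested was called for low dose against vehicle at 9 h, where 2.34% of all transcripts tested were called, and 2 of 4 for high dose at 9 h, where 18.4% were. Between the doses at 9 h 1 of 4 was called beside 7.55%. For 24 h the counts were 1 of 4 for low dose beside 19.4% and 1 of 4 for high dose beside 10.4%. High against low dose at 24 h gave 0 of 4 by edgeR and 0 by DESeq2 beside 14.9%, with 2 at an unadjusted p under 0.05. Of all 16891 transcripts tested by edgeR, 8239 had an unadjusted p under 0.05, and DESeq2 called 2752.

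For hepatocyte vehicle cultures, 24 h against 9 h, 0 of 3 tested were called by edgeR beside 19.9% of all transcripts, 2 had an unadjusted p under 0.05, and DESeq2 called 4. Of all 16264 transcripts tested by edgeR, 5675 had an unadjusted p under 0.05, and DESeq2 called 7942. Without the library MS-183 ENSRNOT00000010092 was called higher at 24 h (log2 fold change 0.96, adjusted p = 1.14e-05) and ENSRNOT00000008535 lower (-0.73, adjusted p = 0.000308), against 0.81 (edgeR adjusted p = 0.0830) and -0.88 (adjusted p = 0.0975) with it. With all libraries kept, DESeq2 called both (0.82, adjusted p = 0.000989, and -0.93, adjusted p = 0.00478), and so did edgeR with all hepatocyte groups in one fit (0.89, adjusted p = 4.30e-05, and -0.82, adjusted p = 0.000474). ENSRNOT00000065584, which the filter had removed, was called as well without MS-183 or without any 1 of the 9 h libraries, against practically 0 at 9 h. The low-dose count at 24 h rose from 1 to 3 without MS-183, with ENSRNOT00000010092 and ENSRNOT00000054937 (-1.26, adjusted p = 0.0350, edgeR) added.

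In cardiomyocytes edgeR called 0 of 4 for low dose at 9 h beside 2.41% of all transcripts (1 at an unadjusted p under 0.05, 0 by DESeq2) and 0 of 3 for high dose at 9 h beside 12.6% (1 at an unadjusted p under 0.05, and 1 by DESeq2). Over all transcripts tested by edgeR, 3569 of 17162 and 9136 of 17871 had an unadjusted p under 0.05. DESeq2 called 768 and 2446. Between the doses 1 of 4 was called at 9 h beside 7.69%. At 24 h the low dose gave 0 of 4 beside 0.00%, that is 0 of 16998 transcripts by edgeR, of which 2028 had an unadjusted p under 0.05 and DESeq2 called 192. Among the 4, 2 had an unadjusted p under 0.05 and DESeq2 called 0. The high dose gave 2 of 4 beside 12.4%, high against low dose 2 of 4 beside 5.64%, and vehicle at 24 h against 9 h 2 of 4 beside 7.70%. In each of these last 3 comparisons the 2 called were ENSRNOT00000010092 and ENSRNOT00000008535.

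Between the vehicle cultures of hepatocytes and cardiomyocytes, 4 of 4 tested were called at 9 h beside 64.1% of all transcripts and 3 of 4 at 24 h beside 48.8%, shares at which a call is common. At 9 h ENSRNOT00000010092 was higher in hepatocytes by 4.71 (SE 0.16, adjusted p = 4.41e-11) and ENSRNOT00000008535 by 7.57 (SE 0.22, adjusted p = 1.02e-11), while ENSRNOT00000007790 was lower by 3.81 on the log2 scale (log2 fold change -3.81, SE 0.19, edgeR adjusted p = 2.06e-09). ENSRNOT00000054937 was also called (adjusted p = 4.46e-05), with no fold given because the cardiomyocyte libraries together held under 2 counts. At 24 h the differences were 3.92 (SE 0.48) for ENSRNOT00000010092 and 2.43 (SE 0.50) for ENSRNOT00000008535. ENSRNOT00000007790 was called lower in hepatocytes (edgeR adjusted p = 4.16e-05), with no fold given because the hepatocyte libraries together held 4 counts. Limma on log2(CPM + 0.5) did not call ENSRNOT00000008535 at 24 h (adjusted p = 0.472).

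For the renal comparisons that chose the transcripts, the same rule is met by 4 of 5 at the low dose at 9 h, where 6.69% of all transcripts met it, and by 4 of 5 at the high dose at 9 h (19.1%). High against low dose at 9 h counts 5 of 5 (12.7%), and vehicle at 24 h against 9 h counts 4 of 5 (9.10%). At 24 h the low dose counts 0 of 5 (0.0622%), the high dose 4 of 5 (26.9%), or 2 without MS-137, and high against low dose 2 of 5 (19.7%). Nothing about the 5 can be read from these counts, since the choice fixed them.

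Ranks in renal cells are given as a description. They are among transcripts that met the rule, averaged 3 or more in log2 CPM and had non-overlapping libraries. ENSRNOT00000010092 was 2nd of 1115 higher ones for high dose at 24 h, between neighbours at 5.47 and 5.27, and 1st of 783 for high against low dose. ENSRNOT00000008535 was 1st of 1258 lower ones for high dose at 24 h, with the next at -3.72. At the low dose at 9 h ENSRNOT00000065584 was 1st among the higher ones (the next at 1.97) and ENSRNOT00000007790 2nd of 305 lower ones (the next at -2.08), and at the high dose at 9 h ENSRNOT00000054937 was 2nd of 881 lower ones (the next at -2.61). For high against low dose ENSRNOT00000008535 was 1st of 630 lower ones at 24 h (the next at -3.64), and at 9 h ENSRNOT00000065584 was 3rd and ENSRNOT00000054937 6th of 529 lower ones. ENSRNOT00000007790 was 2nd of 348 lower ones for vehicle at 24 h against 9 h. Ranks further down the lists include these: at the low dose at 9 h ENSRNOT00000054937 was 99th of 305 lower ones and ENSRNOT00000008535 lay past the middle of them, ENSRNOT00000010092 was 69th of 536 higher ones at the high dose at 9 h, and ENSRNOT00000007790 was 1199th of 1258 lower ones at the high dose at 24 h.

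On the length-corrected scale the order of the 5 in renal cells changed between conditions. In vehicle cultures at 9 h ENSRNOT00000007790 was the most abundant at 85.3 ± 3.43 TPM (SD, n = 5), followed by ENSRNOT00000065584 at 23.8 ± 11.7 TPM, ENSRNOT00000008535 at 11.4 ± 0.524 TPM, ENSRNOT00000054937 at 8.52 ± 1.92 TPM and ENSRNOT00000010092 at 6.27 ± 0.390 TPM. At the high dose at 24 h ENSRNOT00000065584 at 141.4 ± 51.6 TPM and ENSRNOT00000010092 at 115.4 ± 19.8 TPM were the most abundant and differed by less than their spread. ENSRNOT00000007790 then had 10.1 ± 0.822 TPM, ENSRNOT00000054937 4.12 ± 1.04 TPM and ENSRNOT00000008535 0.788 ± 0.127 TPM. For each transcript, ordering the 18 conditions by mean TPM in place of mean CPM moved no condition by more than 2 places.

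Across the 18 conditions the 5 have different orders. ENSRNOT00000010092 was highest in high-dose renal cells at 24 h, apart from the next (high-dose renal cells at 9 h, 41.4 ± 4.45 CPM), and its 6 lowest conditions were the 6 of cardiomyocytes. ENSRNOT00000008535 was highest in low-dose hepatocytes at 24 h (269 ± 35.8 CPM), apart from high-dose hepatocytes at 24 h (182.6 ± 31.9 CPM). For ENSRNOT00000010092, 13 of the 17 neighbouring pairs of conditions in the order overlapped in their libraries, for ENSRNOT00000008535 12, for ENSRNOT00000007790 11, for ENSRNOT00000054937 16 and for ENSRNOT00000065584 17. The last 2 thus have hardly any step in their order that exceeds the spread of the libraries. Pearson's r between pairs of the 5 over the 18 condition means, on log2(CPM + 0.5), ranged from -0.39 to 0.58.

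**Figure D3:**
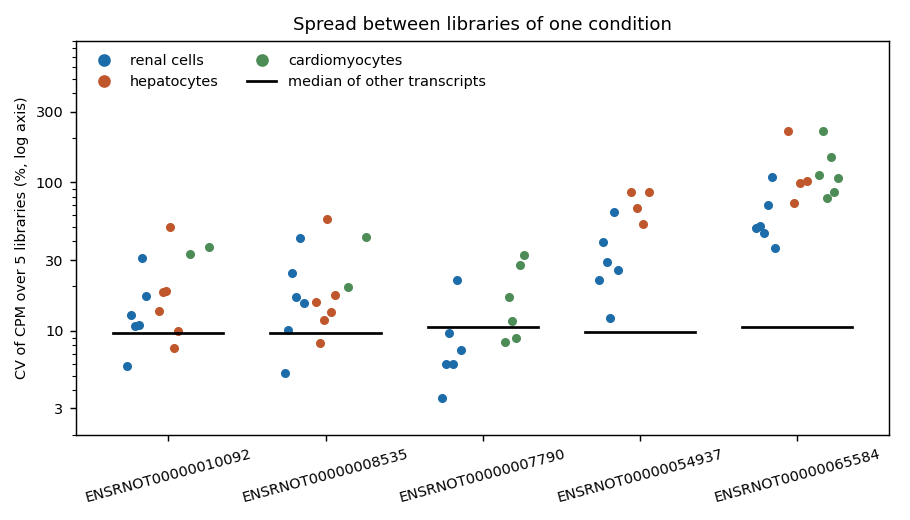
The vertical axis, on a log scale, is the CV of CPM over the 5 libraries of a condition, in percent, for each condition in which the transcript's mean was at least 1 CPM (points, coloured by cell type). Black lines are the median CV of the other transcripts in those conditions, and the points of ENSRNOT00000065584, from 36.1% to 224%, all lie above it.

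Replicate scatter and the way reads were divided set ENSRNOT00000054937 and ENSRNOT00000065584 apart from the other 3. Where several transcripts could have given a read, Kallisto divides it among them, so an estimated count that is not whole shows that reads were shared. ENSRNOT00000010092, ENSRNOT00000008535 and ENSRNOT00000007790 had whole counts in all 90 libraries (within 0.001), as did 36.3% of the 17555 transcripts with a mean of at least 1 CPM. ENSRNOT00000054937 had whole counts in 31 libraries, and it was 0 in 31. ENSRNOT00000065584 had whole counts in 16 libraries, was 0 in 10 and reached 1 count in 65.

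The CV of ENSRNOT00000065584 over the libraries of a condition had a median of 92.5% over 16 conditions, against a median of 10.6% for other transcripts with a mean of at least 1 CPM in the same conditions. For ENSRNOT00000054937 the median CV was 46.1% over 10 conditions beside 9.85%. The others had medians of 15.5% (ENSRNOT00000010092) and 16.3% (ENSRNOT00000008535) beside 9.69%, and 9.35% (ENSRNOT00000007790) beside 10.6%. Whether the division of reads accounts for the wider scatter was not tested, and levels of both transcripts are uncertain where near-identical sequences take part of their reads.

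**Figure D4:**
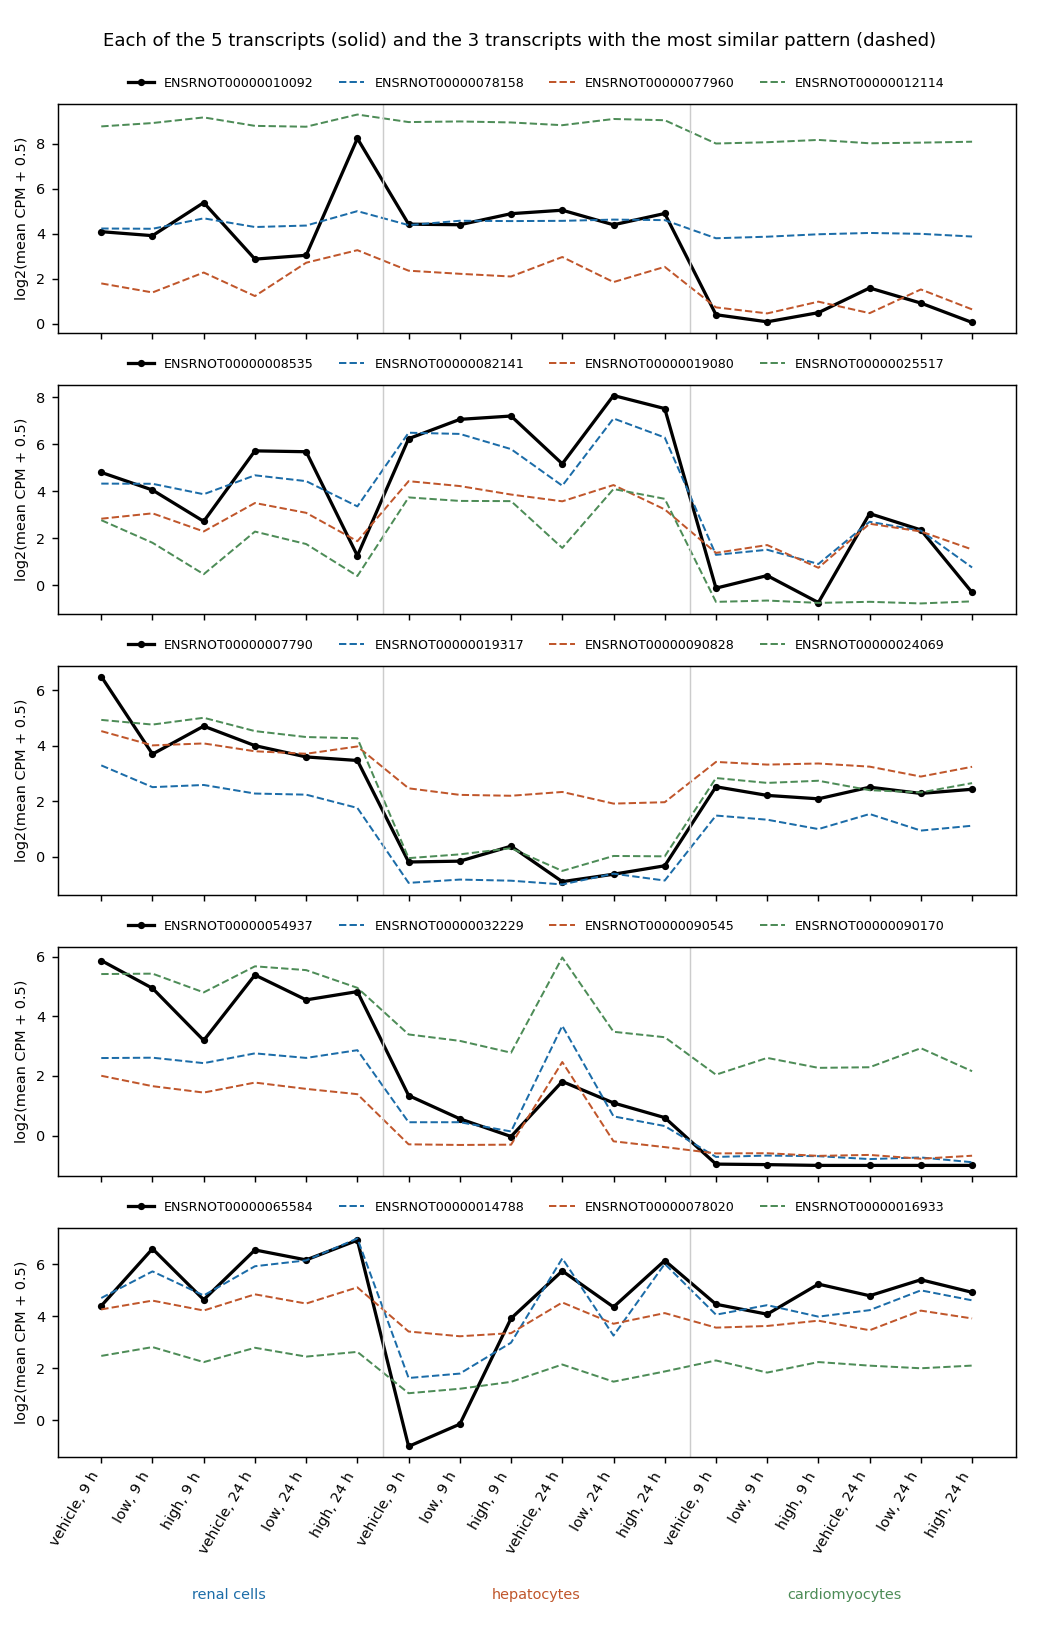
The vertical axis is log2(mean CPM + 0.5) and the horizontal axis the 18 conditions, with renal cells, hepatocytes and cardiomyocytes from left to right. The solid line of each panel is 1 of the 5 transcripts and the dashed lines are the 3 transcripts with the highest Pearson's r to it. From vehicle to high dose in renal cells at 24 h the line of ENSRNOT00000010092 climbs from 6.82 to 303 CPM, a steeper step than any dashed line of its panel takes.

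The transcripts with the most similar patterns were sought by Pearson's r of log2(CPM + 0.5) over the 18 condition means among 22449 transcripts. The r values describe shared levels between cell types as much as dose effects, since all points share libraries and a large difference between cell types alone gives a high r. ENSRNOT00000010092 was most similar to ENSRNOT00000078158 (r = 0.96), ENSRNOT00000077960 (0.95) and ENSRNOT00000012114 (0.94), whose renal means at 24 h went from 19.2 to 31.7, from 1.84 to 9.15 and from 447 to 635 CPM between vehicle and high dose. For ENSRNOT00000008535 these were ENSRNOT00000082141 (0.96), ENSRNOT00000019080 (0.95) and ENSRNOT00000025517 (0.93). Their renal means at 24 h went from 25.0 to 9.69, from 10.8 to 3.14 and from 4.34 to 0.804 CPM between vehicle and high dose.

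ENSRNOT00000007790 was most similar to ENSRNOT00000019317 (r = 0.98), ENSRNOT00000090828 (0.97) and ENSRNOT00000024069 (0.96), and ENSRNOT00000054937 to ENSRNOT00000032229, ENSRNOT00000090545 and ENSRNOT00000090170 (0.98 each). A high r did not mean a shared renal dose pattern: from vehicle to high dose at 9 h ENSRNOT00000024069 went from 30.1 to 31.8 CPM while ENSRNOT00000007790 went from 90.02 to 25.7 CPM, and ENSRNOT00000032229 went from 5.57 to 4.89 CPM while ENSRNOT00000054937 went from 58.1 to 8.64 CPM. The nearest to ENSRNOT00000065584 were ENSRNOT00000014788 (0.90), ENSRNOT00000078020 (0.90) and ENSRNOT00000016933 (0.87). For scale, the transcript at place 1000 of the list still had r = 0.77, 0.76, 0.87, 0.85 and 0.63 for the 5 in the order of the opening sentence. Ordered by Spearman's rho, 1, 1, 0, 1 and 2 of the 3 stayed among the first 3.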

How the data were processed

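The authors pseudo-aligned 150-base paired reads of stranded poly-A libraries to the Rnor_6.0 Ensembl transcriptome with Kallisto (version 0.42.4 in the submitters' processing notes) and deposited, for each of 90 libraries, estimated counts and TPM for 65166 targets. These are 40071 transcripts and 25095 genomic intervals, and the intervals were left out. Rounded estimated counts of each pair of groups (7 comparisons per cell type and 2 between hepatocyte and cardiomyocyte vehicle, 23 in all) were fitted over all transcripts in edgeR 4.0.16 (R 4.3.3; filterByExpr, TMM, glmQLFit, glmQLFTest) with Benjamini-Hochberg adjustment. A call needs an adjusted p no larger than 0.05 and a change of 0.41 or more on the natural-log scale, after the thresholds in the study's methods. SE is the fitted log2 fold change divided by the square root of F. The tests were first checked on data simulated from the renal vehicle and low-dose libraries at 9 h, none of which is shallow. There edgeR called 118 of 200 changed transcripts, 94 of the 123 changed 2-fold or more, and 1 unchanged transcript. A change that is not called may therefore be a missed one. CPM was computed over transcripts, without TMM scaling.

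The 5 transcripts, the lists and the tests were chosen with earlier results of these data known. Named beside them are, for each, the 3 transcripts most similar by Pearson's r over condition means. Marker and pathway lists had been planned but could not be used, since no identifier was paired with a gene. Alternatives were DESeq2 1.42.0, limma 3.58.1 on log2(CPM + 0.5), upper-quartile normalization, other filters (none beyond 1 count, at least 5 counts in at least 47% of libraries), no fold threshold, one fit over every group of a cell type, log2(TPM + 1) and each library left out. The test between cell types was added after the values were seen. No pair of libraries was identical.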

Additional observations from a re-analysis of the deposited data

Results flagged for a closer look

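In 15 of 86 sets of 5 values the highest or lowest library stood apart, its gap to the nearest other exceeding Dixon's 95% critical share of the set's range. Chance gives about 1 in 20 for values without ties, or 4.3 of 86, but a set of 4 libraries at or near 0 meets the rule whatever the size of the remaining value, so the number cannot be read against that. For ENSRNOT00000010092 these were 49.4 CPM in high-dose renal library MS-131 (9 h) and 4.01 CPM in hepatocyte vehicle library MS-183 (24 h). For ENSRNOT00000008535 they were 0 CPM in MS-183, 127.1 CPM in high-dose hepatocyte library MS-120 (24 h) and 0.821 CPM in high-dose cardiomyocyte library MS-178 (24 h). For ENSRNOT00000007790 they were 0.143 CPM in hepatocyte vehicle library MS-185 (24 h) and 2.17 CPM in MS-178. Of these, MS-183 and MS-178 are among the 7 shallow libraries.

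ENSRNOT00000054937 gave 0.0769 CPM in cardiomyocyte vehicle library MS-151 and 0.0459 CPM in low-dose library MS-160, both at 9 h and beside 4 libraries at 0. ENSRNOT00000065584 gave 6 such values: 203 CPM in low-dose renal library MS-144 (24 h), 3.61e-08 CPM in hepatocyte vehicle library MS-95 (9 h, beside exact 0 and of no practical size), 2.02 CPM in low-dose hepatocyte library MS-97 (9 h), 73.1 CPM in high-dose hepatocyte library MS-105 (9 h), 197 CPM in high-dose hepatocyte library MS-120 (24 h) and 82.0 CPM in low-dose cardiomyocyte library MS-157 (9 h). In MS-120 ENSRNOT00000065584 was thus far above and ENSRNOT00000008535 far below the other 4 libraries. What sets these libraries apart was not tested.

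The test of the difference between the effects against vehicle in hepatocytes and cardiomyocytes passed the threshold in 6 cases, of which 3 rest on few counts. On the log2 scale, hepatocytes minus cardiomyocytes, ENSRNOT00000008535 differed by 3.09 at the high dose at 9 h, 3.40 at the low dose at 24 h and 7.09 at the high dose at 24 h. ENSRNOT00000007790 differed by 1.73 at 9 h and 2.65 at 24 h at the high dose, and ENSRNOT00000010092 by 1.89 at the high dose at 24 h. Those of ENSRNOT00000008535 at 9 h (40 vehicle and 20 high-dose counts in cardiomyocytes) and of ENSRNOT00000007790 at 9 h (46 and 107 in hepatocytes) and 24 h (4 and 41 in hepatocytes) are given as values only, and nothing is drawn from them. Dose and cell type cannot be told apart in these, since no dose was shared.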

How the results depend on the processing

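No value changed its sign past the threshold under any alternative run. Calls over all transcripts moved with the setting as well. In hepatocytes at 24 h, low dose against vehicle had 3228 by edgeR, 7946 by DESeq2 and 1638 by limma. High dose had 1693, 6277 and 819, and vehicle at 24 h against 9 h had 3234, 7942 and 1550. For the other alternatives and with a library left out, calls over all transcripts are not given, so nothing about the 5 is read from their counts. The following counts of the 5 transcripts called moved by more than 1.5 times. For hepatocytes, high against low dose at 9 h (1), the count was 2 with no fold threshold, 0 with limma and 0 with all groups in one fit. Low dose against vehicle at 24 h (1) gave 2 with DESeq2, 0 with limma and 2 in one fit, and high dose at 24 h (1) gave 0 with no filter beyond 1 count, 0 with limma and 2 in one fit. High against low dose at 24 h (0) gave 2 with no fold threshold, and vehicle at 24 h against 9 h (0) gave 4 with DESeq2, 1 with no filter, 1 with at least 5 counts in 47% of libraries and 4 in one fit. In cardiomyocytes, high dose against vehicle at 9 h (0) gave 1 with no fold threshold, with DESeq2, with the 5-count filter and in one fit, and high against low dose at 24 h (2) gave 1 with no filter. Smaller changes were 3 in place of 2 for high-dose hepatocytes against vehicle at 9 h (no fold threshold, DESeq2, limma), 5 in place of 4 and 2 to 4 in place of 3 for hepatocytes against cardiomyocytes at 9 and 24 h, and 3 in place of 4 for high-dose renal cells at 24 h (one fit).

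Leaving out 1 library at a time, the counts in hepatocytes were 2 to 3 for high dose at 9 h, 1 to 2 for high against low dose at 9 h, 1 to 3 for low dose at 24 h, 0 to 1 for high against low dose at 24 h (1 without MS-114 or MS-119) and 0 to 3 for vehicle at 24 h against 9 h. In cardiomyocytes they were 0 to 1 for low dose at 9 h, 1 to 2 for high against low dose at 9 h and 1 to 2 for high against low dose at 24 h, and in renal cells 3 to 4 for low dose at 9 h and 2 to 4 for high dose at 24 h. Between hepatocytes and cardiomyocytes they were 4 to 5 at 9 h and 3 to 4 at 24 h, and in the remaining comparisons the count did not move. Of the values of single transcripts outside renal cells, 412 kept their side of the threshold, 13 became and 8 ceased to be calls under alternatives, and 600, 15 and 5 did so with a library left out. In renal cells 12 differences of mean log2(TPM + 1) lay further from the fitted log2 fold change than an SD between libraries. For doses against vehicle at 24 h that SD came from the 9 and 24 h vehicle groups and left out the dosed group. The 12 therefore cannot be read as changes past the spread of the groups compared. At the high dose at 24 h the differences were 5.005 for ENSRNOT00000010092 and -3.66 for ENSRNOT00000008535. The cause of these changes was not tested. Of each set of 3 most similar transcripts, 1, 2, 2, 0 and 2 stayed among the first 3 without MS-183. No paired analysis was possible because no replicate number occurs in more than 1 group. Depth limits what can be said at 0 to 1 CPM, where a group holds few counts.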
